A study of Mus musculus with 8 samples.

Results

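The sinusoidal and vascular endothelial genes are 40 genes, taken by symbol, out of 35975 genes listed for these livers. They were read as a measure of how much endothelial RNA a whole-liver library holds and of the signals that endothelium sends to hepatocytes. Estimated transcript counts were summed for each gene in 8 libraries, 4 from mice infused with normal saline and 4 from mice infused with 4-hydroxyphenylacetic acid (4-HPAA), a phenolic acid that gut microbes make. All mice were C57BL/6 and carried an intraportal catheter fed by an osmotic pump for 2 weeks, so surgery, catheter and single housing were common to both groups. According to the methods, mice were bought at 8 to 10 weeks of age and the pump delivered 55 mM 4-HPAA at 0.25 µL per hour. The labels give no sex, and genes of the Y chromosome were expressed in all 8 libraries. Library totals lay between 29559978 and 30673398 estimated counts. The labels do not say whether the libraries of a group came from separate animals, and p-values measure only the spread between these libraries.

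Liver sinusoids are lined by an endothelium with open pores and no firm basement membrane. It clears waste proteins and immune complexes from portal blood through scavenger receptors and lectins, a role other blood vessels largely lack. Around the central vein the same lining releases Wnt ligands and R-spondin 3, which keep neighboring hepatocytes in their pericentral state. Sinusoidal endothelium also releases Bmp2, which drives the iron hormone hepcidin. Vessels of the portal triad and larger veins carry the general vascular genes and the Notch and ephrin genes of arteries. In bulk liver, fewer endothelial cells and less endothelial RNA per cell cannot be told apart.

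Levels were compared between genes per length, as counts per kilobase scaled to a common total in each library. On that scale the highest member was Aqp1, a water channel that bile duct cells also express, with 38.8 ± 7.97 in saline and 41.2 ± 10.7 in 4-HPAA livers (SD, n = 4 each). Clec4g, a lectin of sinusoidal endothelium, followed with 36.8 ± 6.198 and 37.9 ± 11.5 on the length-scaled level. The inhibitory Fc receptor Fcgr2b, which removes small immune complexes, stood at 29.2 ± 5.57 and 31.6 ± 10.4, and the VEGF co-receptor Nrp1 at 27.1 ± 9.11 and 25.6 ± 9.52. Next in order were the scavenger receptor Stab1 and the TGF-β co-receptor Eng, with 23.1 ± 1.29 and 19.7 ± 2.36 in saline livers. Neighbors in this order overlapped in their range over the 8 libraries, and these 6 genes held 45.4% of the summed length-scaled level of the 40.

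The lowest length-scaled levels belonged to signaling genes. Efnb2, an arterial ephrin, reached 0.850 ± 0.207 in saline and 0.708 ± 0.0610 in 4-HPAA livers, and Wnt2, a central vein Wnt ligand, 1.04 ± 0.243 and 1.20 ± 0.448. Wnt9b, the other Wnt ligand of the list, lay at 0.187 ± 0.0950 and 0.240 ± 0.0655. With 9, 26, 17 and 10 estimated counts in saline and 22, 20, 25 and 12 in 4-HPAA libraries, Wnt9b did not have at least 10 counts in every library and was not tested, which left 39 members.

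Between the treatment groups, none of the 39 tested members passed an adjusted p of 0.05 in the quasi-likelihood test of edgeR, with Benjamini-Hochberg adjustment over 12883 genes. Among all genes tested 0 were called, or 0%. At an unadjusted p under 0.05 there were 0 members beside 225 genes in all, or 1.75%, and limma-voom and DESeq2 called no member either. Groups failed to overlap in 0 members and in 1.2% of genes. The log2 fold change was below its standard error in 31 of the 39 members. Its 95% interval stayed within a 2-fold change in either direction for 37 members and within 1.5-fold for 19.

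The fold change was above 0 for 31 of 39 members, or 79.5%, beside 50.4% of all genes tested, and its median was 0.06 on the log2 scale beside 0.0007 over all genes. The count varied with the library left out. Without 4-HPAA replicate 2 the count was 12 of 39 with a median log2 fold change of -0.03, and without saline replicate 4 it was 16 of 39 with a median of -0.01. Leaving out any other single library gave 26 to 34 members above 0. Without replicate 4 of both groups, chosen after seeing the data, the count was 28 of 39 with a median of 0.10.

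**Figure D1:**
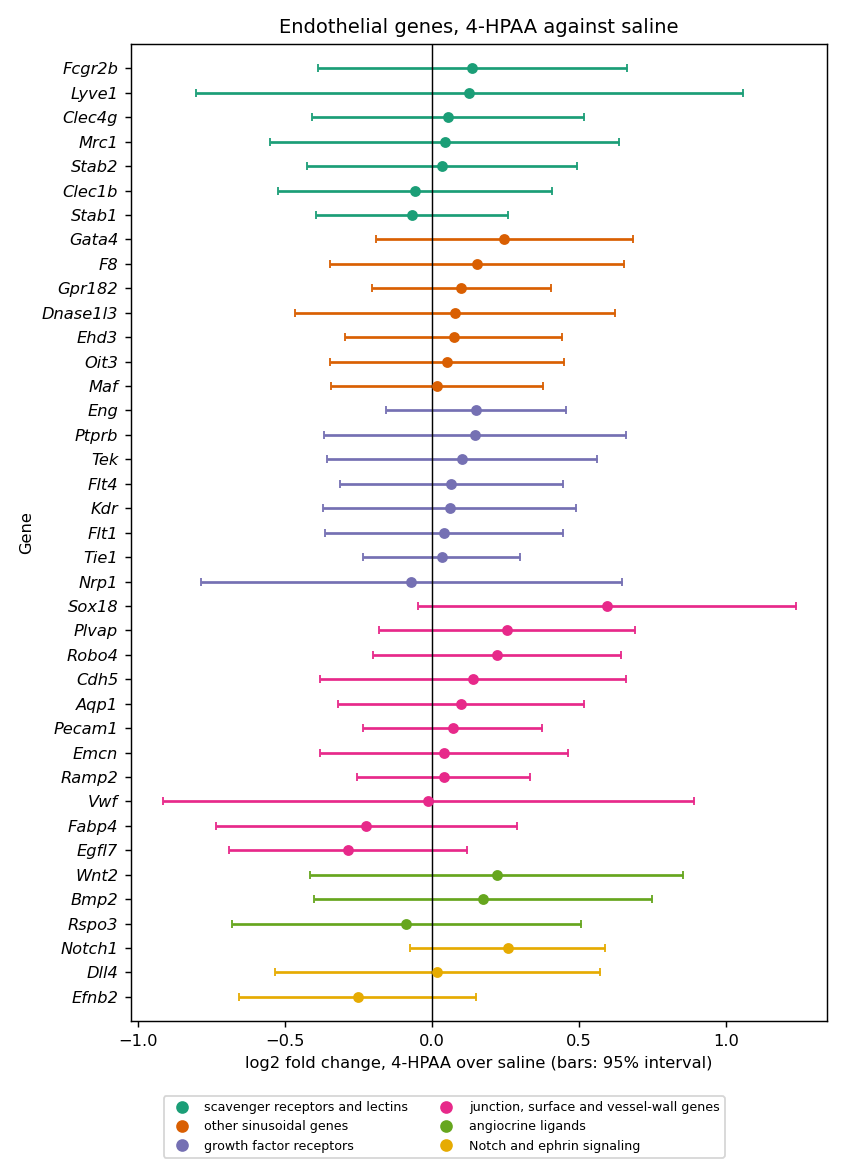
Log2 fold change of 4-HPAA over saline livers for the 39 tested endothelial genes, by role; points are estimates of edgeR's quasi-likelihood fit and bars 95% intervals. All 39 intervals cross 0, and those of Lyve1, Vwf, Nrp1 and Sox18 are among the widest.

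Most members were low in the same libraries. Saline replicate 4 was the lowest saline library for 27 of 39 members, or 69.2%, beside 27.7% of all genes tested. Among the 4-HPAA libraries replicate 4 was lowest for 30 of 39, or 76.9%, beside 34.4% of all genes. Both held for 26 members, or 66.7%, beside 14.9% of all genes, and 24 members were under 0.8 times the mean of the other libraries of their group in both groups, or 61.5% beside 8.58%. The median deviation of members from their group mean was -0.27 in saline replicate 4 and -0.44 in 4-HPAA replicate 4 on the log2 scale, where the median of all genes was -0.0075 and -0.0151. 4-HPAA replicate 2 stood at the other end, highest of its group for 26 members, or 66.7% beside 26.0% of all genes. These libraries were singled out after their values were seen, so the counts are descriptions. Outside the members, 5 of 27 tested genes in the related list of other endothelial genes were lowest in replicate 4 of both groups. Of all 28 genes in that list, 19 were lowest of their group in 4-HPAA replicate 4 and 8 in saline replicate 4. Their median deviation was -0.28 in 4-HPAA replicate 4 and -0.07 in saline replicate 4 on the log2 scale.

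**Figure D2:**
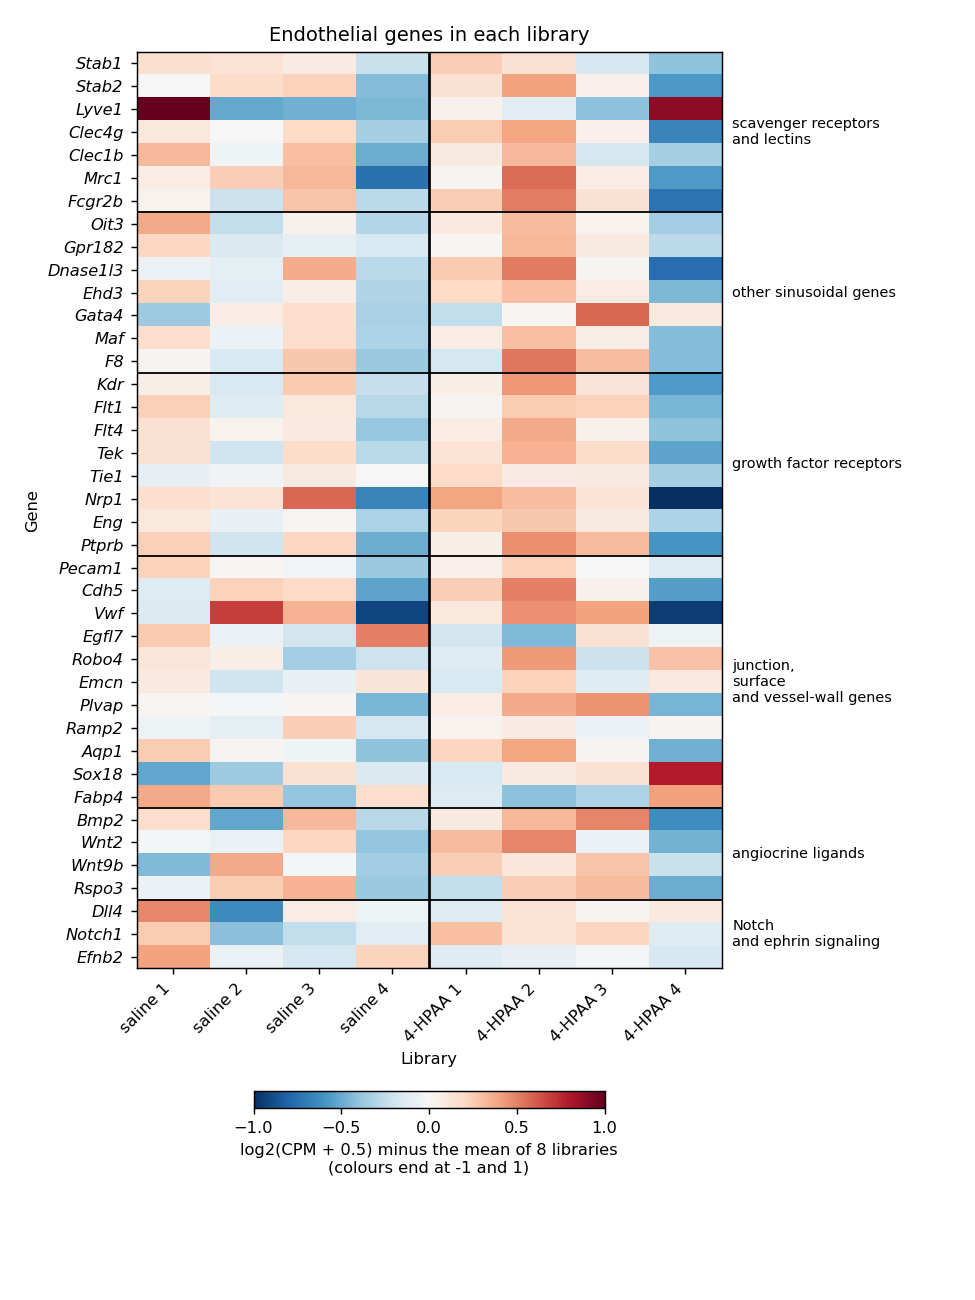
Each row is 1 of the 40 endothelial genes and each column a library; color gives log2(CPM + 0.5) minus the gene's mean over the 8 libraries. Replicate 4 of both groups is blue for most sinusoidal genes and growth factor receptors, while Lyve1, Sox18, Egfl7 and Fabp4 depart from that pattern.

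Scavenger receptors and lectins carried this pattern in 6 of 7 genes. Levels are given as CPM, counts scaled to a common library total and normalized between libraries. Stab2, the main hyaluronan scavenger receptor of the sinusoid, was at 36.9, 42.2, 43.6 and 27.3 CPM in saline replicates 1 to 4 and at 41.2, 49.1, 38.5 and 24.8 in the 4-HPAA replicates. Replicate 4 was lowest in each group and the groups overlapped over nearly their whole range, with a log2 fold change of 0.03 ± 0.20 (SE). Clec4g read 29.6, 27.3, 31.5 and 21.7 CPM in saline and 32.7, 36.1, 28.3 and 17.2 in 4-HPAA libraries. Fcgr2b gave 35.7, 30.1, 42.7 and 28.9 CPM beside 41.6, 49.98, 38.9 and 20.7. Its 4-HPAA replicate 4 was below all saline libraries while replicate 2 was above them.

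Stab1, which lies at chr14:31139013-31168641 (GRCm38, minus strand), varied less, with 50.4, 49.8, 47.7 and 38.5 CPM in saline and 53.5, 50.1, 40.1 and 34.0 in 4-HPAA libraries. The mannose receptor Mrc1, which Kupffer cells also express, fell to 0.502 and 0.565 times the mean of the other libraries in the replicate 4 libraries, and the lectin Clec1b to 0.599 and 0.731 times. In all, 5 of the 7 genes had fold changes above 0 and 2 below, with a median of 0.04 on the log2 scale.

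Lyve1, a hyaluronan receptor of sinusoidal and lymphatic endothelium, was the exception. Its levels were 17.1, 5.56, 5.71 and 5.84 CPM in saline and 8.41, 7.47, 6.02 and 15.5 in 4-HPAA libraries. One library in each group was raised, saline replicate 1 and 4-HPAA replicate 4, and the latter was low in the other 6 genes of its role. The log2 fold change was 0.13 ± 0.42, and leaving out saline replicate 1 moved it to 0.71, leaving out 4-HPAA replicate 4 to -0.24. Of the 7 genes in the lymphatic list, which includes Lyve1 and Flt4, 4 were tested and summed levels were 164 to 278 CPM in saline and 184 to 260 in 4-HPAA libraries, mostly from Prox1, which hepatocytes also express, and Reln, which stellate cells express. The defining marker Pdpn was at or near 0, with at most 0.224 CPM in any library. Their part in the Lyve1 levels was not tested.

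Of the other sinusoidal genes, 7 of 7 had fold changes above 0, with a median of 0.08 and a range of 0.02 to 0.24 on the log2 scale, and none passed the test. Dnase1l3, a secreted nuclease, Ehd3, an endocytic recycling protein, Oit3, Maf, Gpr182 and the coagulation factor gene F8 were all lowest in replicate 4 of both groups. The receptor Gpr182 was at 17.1, 13.3, 13.9 and 13.3 CPM in saline and 14.9, 18.7, 15.8 and 12.2 in 4-HPAA libraries. Saline replicate 1 stood above the other saline libraries. In 4-HPAA libraries Dnase1l3 had the largest fold between its highest and lowest library among them, from 15.4 to 38.1 CPM, and in saline it ran from 21.9 to 34.4. Gata4, the transcription factor that keeps sinusoidal endothelium from turning into ordinary capillary endothelium, did not follow them. It was at 7.12, 9.85, 10.5 and 7.35 CPM in saline and 7.79, 9.40, 14.1 and 10.003 in 4-HPAA libraries, with a log2 fold change of 0.24 ± 0.20 and an unadjusted p of 0.240 in edgeR's test.

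Growth factor receptors were lowest in replicate 4 of both groups in 7 of 8 cases, with Tie1 the exception. Nrp1 had the widest spread of the highly expressed members: 61.0, 59.6, 81.1 and 33.8 CPM in saline and 71.4, 67.2, 59.6 and 25.9 in 4-HPAA libraries. Its replicate 4 libraries reached 0.503 and 0.392 times the mean of their groups' other libraries, and the log2 fold change was -0.07 ± 0.32. Kdr, the main VEGF receptor of endothelium, ran at 30.6, 26.2, 35.0 and 24.8 CPM beside 30.4, 39.5, 31.9 and 19.6. Eng was at 42.1, 37.0, 39.3 and 31.2 CPM in saline and 45.6, 47.2, 41.6 and 31.4 in 4-HPAA libraries, so the replicate 4 libraries of the 2 groups nearly coincided.

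The angiopoietin receptor Tek ranged from 4.06 to 7.87 CPM, the lymphatic VEGF receptor Flt4 from 13.1 to 22.9 and the phosphatase Ptprb from 30.8 to 64.2. Tie1, an orphan receptor that partners with Tek, was at 10.003, 10.4, 11.3 and 10.6 CPM in saline libraries, the narrowest saline spread of the receptors. Fold changes were above 0 for 7 of the 8 receptors, with a median of 0.06 on the log2 scale.

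**Figure D3:**
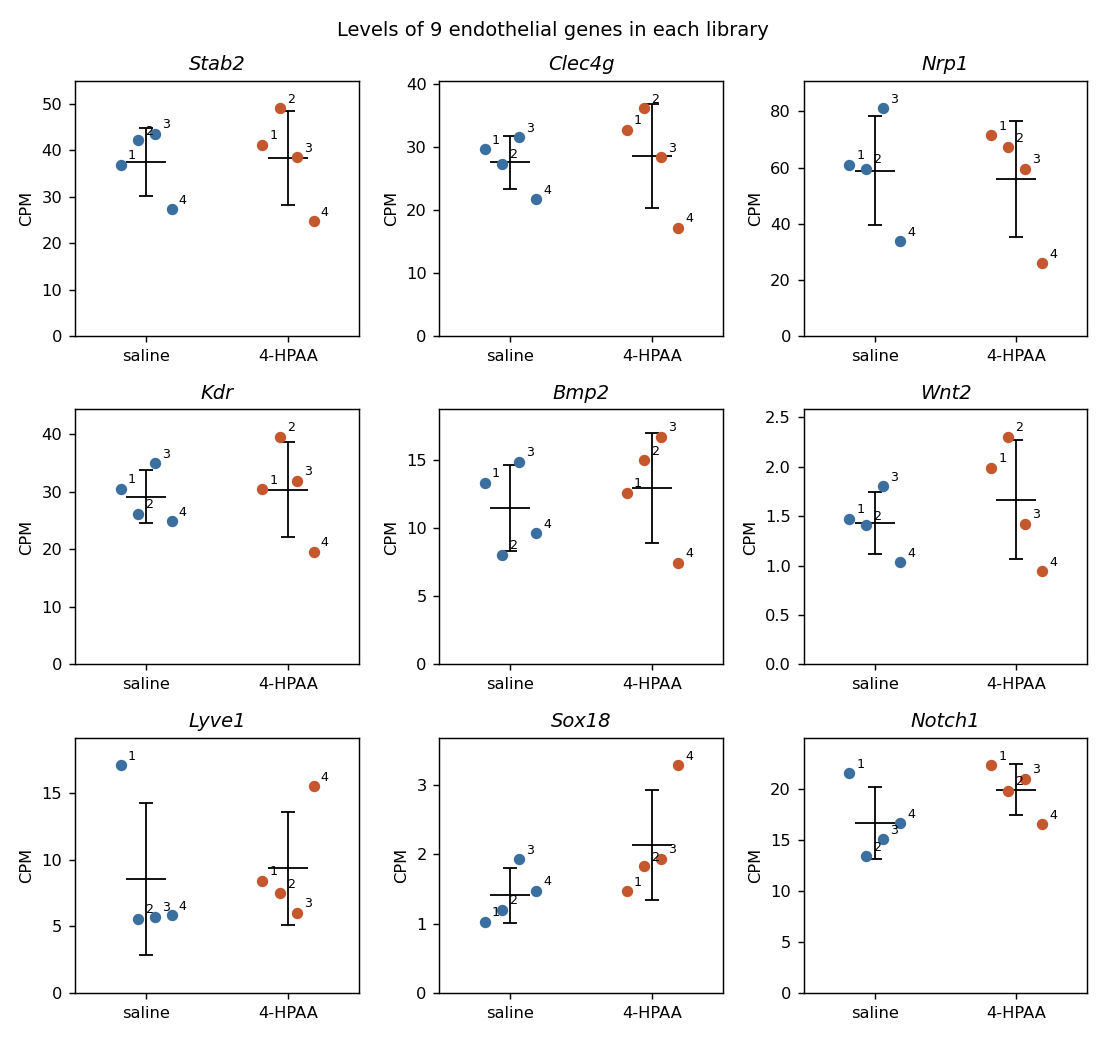
CPM of 9 endothelial genes in each library, with saline in blue and 4-HPAA in orange; the number beside a point is the replicate, the bar the group mean and the whiskers ±1 SD (n = 4). Replicate 4 is lowest in both groups for Stab2, Clec4g, Nrp1, Kdr and Wnt2, and the highest 4-HPAA library for Lyve1 and Sox18.

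Junction, surface and vessel-wall genes split. Aqp1 (75.0, 64.1, 61.1 and 47.5 CPM in saline, 73.2, 83.0, 64.1 and 45.05 in 4-HPAA libraries) behaved as the sinusoidal genes did, as did the adhesion molecule Pecam1, the cadherin Cdh5 and Vwf, which carries factor VIII in blood. Vwf had the widest range, with 3.88, 7.31, 5.64 and 2.06 CPM beside 4.68, 6.14, 5.89 and 1.99. Plvap, which forms the diaphragms of fenestrated vessels, was at 18.9, 18.5, 18.8 and 13.4 CPM in saline and 19.6, 24.4, 25.6 and 13.4 in 4-HPAA libraries. Replicates 1 to 3 of 4-HPAA were above all saline libraries, replicate 4 was level with the lowest of them, and the log2 fold change was 0.25 ± 0.19 with an unadjusted p of 0.221 in edgeR's test.

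The other vessel-wall genes did not share the low replicate 4. Sox18, a transcription factor of vascular and lymphatic development, had the smallest p of all members. It read 1.03, 1.20, 1.94 and 1.48 CPM in saline and 1.47, 1.83, 1.94 and 3.29 in 4-HPAA libraries, a log2 fold change of 0.59 ± 0.29 with an unadjusted p of 0.0659 and an adjusted p of 1.00 in edgeR's test. The groups overlapped, and the log2 fold change was 0.31 without 4-HPAA replicate 4, 0.74 without 4-HPAA replicate 1 and 0.79 without saline replicate 3, with an unadjusted p under 0.05 in the latter 2 fits. Egfl7, a secreted vessel protein, ran the other way, at 10.7, 8.51, 7.74 and 12.8 CPM in saline and 7.75, 6.40, 9.90 and 8.53 in 4-HPAA libraries (log2 fold change -0.29 ± 0.18, unadjusted p = 0.147, edgeR). Exons of Egfl7 overlap 64 bases of the more abundant Agpat2 on the opposite strand. According to the methods kallisto ran with standard parameters, which do not use strand. The paired-end reads were longer than that stretch, so a read touching it also covers sequence outside it. How far the overlap affects the Egfl7 level was not tested. Eng overlaps 61 bases of Fpgs on the opposite strand, also less than a read. Clec1b shares 184 bases with Clec9a on the same strand, more than a read, so the split of reads there is uncertain. On the opposite strand, Stab1 overlaps 112 bases of Nt5dc2 and Gpr182 74 bases of Zbtb39.

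Fabp4, a fatty acid carrier of capillary endothelium and adipocytes, was at 7.95, 7.31, 4.46 and 6.84 CPM beside 5.45, 4.40, 4.76 and 8.15, so 4-HPAA replicate 4 was the highest library of its group. Of 5 adipocyte markers, 2 were tested, and their summed level of 959 to 1647 CPM in saline and 822 to 1458 in 4-HPAA libraries was nearly all Car3, which hepatocytes also express. Cidec, a lipid droplet protein, was at 16.3 CPM in 4-HPAA replicate 4 and at 4.23 to 6.70 elsewhere, while the defining markers Adipoq and Lep were at or near 0 in all 8 libraries, with at most 0.0656 CPM. The sialomucin Emcn, the guidance receptor Robo4 and the adrenomedullin co-receptor Ramp2 ranged from 1.13 to 1.70, from 3.94 to 7.07 and from 3.81 to 5.28 CPM. Ramp2 shares 637 exon bases with Vps25 on the same strand, which makes its split uncertain. Of the 11 vessel-wall genes, 8 had fold changes above 0 and 3 below, with a median of 0.07 on the log2 scale.

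Angiocrine ligands were low in 4-HPAA replicate 4. Bmp2 was at 13.4, 8.06, 14.9 and 9.65 CPM in saline and 12.6, 15.0, 16.7 and 7.48 in 4-HPAA libraries, with a log2 fold change of 0.17 ± 0.26. Wnt2 was at 1.47, 1.41, 1.80 and 1.03 CPM beside 1.99, 2.30, 1.42 and 0.944 (0.22 ± 0.28). Rspo3, which amplifies Wnt signals, was at 2.31, 2.98, 3.21 and 1.75 CPM beside 1.96, 2.97, 3.14 and 1.57 (-0.09 ± 0.27). Replicate 4 of 4-HPAA was lowest for all 4 ligands, with Wnt9b at 0.288, 0.892, 0.558 and 0.344 CPM in saline and 0.768, 0.667, 0.809 and 0.420 in 4-HPAA libraries, and the groups overlapped in each.

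Notch and ephrin genes showed no low replicate 4 in saline. Dll4, a Notch ligand of arterial endothelium, was at 3.94, 1.54, 2.85 and 2.58 CPM in saline and 2.41, 3.00, 2.75 and 2.90 in 4-HPAA libraries. Notch1 was at 21.5, 13.4, 15.1 and 16.6 CPM beside 22.3, 19.8, 21.0 and 16.5, with a log2 fold change of 0.26 ± 0.15 and an unadjusted p of 0.115 in edgeR's test. Efnb2 was at 3.14, 2.13, 1.94 and 2.71 CPM beside 2.02, 2.10, 2.23 and 1.96 (-0.25 ± 0.18, unadjusted p = 0.191, edgeR). Saline replicate 1 was the highest saline library for all 3 genes and lay within or above the range of the 4-HPAA libraries.

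Markers of some other cell types shifted with these libraries, and for others too few markers were tested to tell. Of 12 Kupffer cell and macrophage markers, 11 were lowest in replicate 4 of both groups, and their summed level was 162, 412, 272 and 129 CPM in saline and 265, 359, 202 and 124 in 4-HPAA libraries. It was also low in saline replicate 1, where the summed level of the endothelial genes was 804 CPM beside 710, 810 and 567 in saline replicates 2 to 4 and 806, 917, 778 and 527 in the 4-HPAA libraries. Of 10 stellate cell markers, 6 were lowest in both, with a sum of 183 CPM in saline replicate 4 and 220 to 322 in its group, and 196 in 4-HPAA replicate 4 beside 293 to 318. The summed level of 6 hepatocyte markers, mostly albumin, was highest in the same 2 libraries, at 125061 and 124075 CPM beside 93810 to 110574 elsewhere. Red blood cell genes were highest in saline replicate 2 (2609 CPM) and 4-HPAA replicate 4 (735) beside 152 to 376 elsewhere. Of the tested leukocyte markers 1 of 5 was lowest in replicate 4 of both groups, and of the platelet markers 1 of 3. Of bile duct markers it was 0 of 4, and of smooth muscle markers 0 of 3. The share over all genes tested was 14.9%, so counts over so few markers cannot show whether these 4 cell types shifted. The summed bile duct level was lowest of its group in saline replicate 4 (23.5 CPM) and highest in 4-HPAA replicate 4 (38.0 CPM). The part of these shifts in the endothelial levels was not tested.

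**Figure D4:**
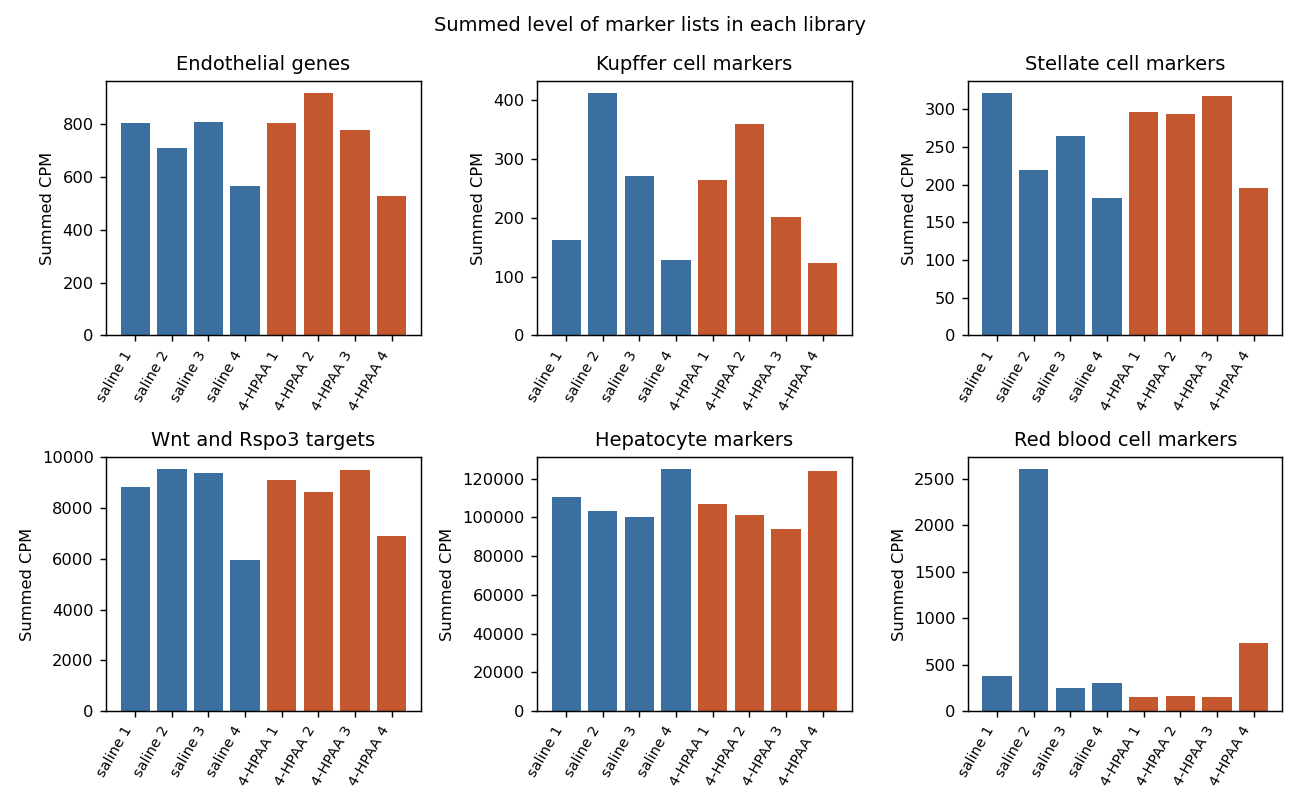
Summed CPM of the 40 endothelial genes, of 12 Kupffer cell, 10 stellate cell, 6 hepatocyte and 6 red blood cell markers and of 15 hepatocyte targets of Wnt and Rspo3 in each library, with saline in blue and 4-HPAA in orange. Endothelial, Kupffer cell, stellate cell and Wnt target sums are lowest in replicate 4 of both groups, where the hepatocyte sum is highest. Most of the Wnt target sum is Cyp2e1, with 4420 of 5948 CPM in saline replicate 4.

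Related genes outside the list gave the same outcome between treatments. Of 94 such genes, 83 were tested, 49 with fold changes above 0 and 34 below, and the median log2 fold change was 0.04. None was called, and 2 of the 83 had an unadjusted p under 0.05 in edgeR's test, beside 1.75% of all genes tested. Groups did not overlap in 3 of the 83, beside 1.2% of all genes tested. Cd36, a fatty acid and thrombospondin receptor that hepatocytes and macrophages also express, was at 43.8, 47.6, 47.3 and 43.2 CPM in saline and 37.7, 41.0, 32.8 and 35.8 in 4-HPAA libraries, with no overlap. Its log2 fold change was -0.30 ± 0.08 and its unadjusted p 0.00435 in edgeR's test. Sox7, which belongs to the same transcription factor family as Sox18, was at 0.737, 0.926, 1.02 and 0.962 CPM beside 1.36, 1.17, 1.36 and 1.40 (0.54 ± 0.17, unadjusted p = 0.0118, edgeR). Both had an adjusted p of 1.00. The groups did not overlap either for the related gene Rasip1, named here after its values were seen, at 3.98 to 4.40 and 4.48 to 5.38 CPM. Sox17, of the same family as Sox7 and Sox18, did not share their direction. It was at 1.86, 1.85, 1.18 and 1.86 CPM beside 1.47, 1.83, 1.75 and 1.26 (-0.10 ± 0.21), and its groups overlapped.

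In the remaining related lists the gene with the smallest p was Vegfc among VEGF and angiopoietin ligands, Hgf among secreted factors, Heyl among Notch genes, Thbd among central vein genes, Reln among lymphatic genes and the member Efnb2 among portal and arterial genes. None had an unadjusted p under 0.05. Vegfc, a ligand of Flt4, was at 1.76, 1.51, 1.84 and 1.51 CPM in saline and 2.09, 2.07, 2.20 and 1.71 in 4-HPAA libraries, with a log2 fold change of 0.29 ± 0.16. Hgf, a growth factor for hepatocytes that stellate cells also make, was at 4.97, 3.05, 5.77 and 2.61 CPM beside 5.03, 6.90, 7.83 and 2.27 (0.43 ± 0.37). Hgf was lowest in replicate 4 of both groups, as were Reln and most members. Heyl, a Notch target, was at 0.769, 0.686, 0.787 and 0.824 CPM beside 0.838, 1.23, 1.003 and 0.769 (0.33 ± 0.20). Thbd, which turns thrombin toward anticoagulation, was at 1.57, 1.96, 2.72 and 1.89 CPM beside 3.18, 2.30, 2.72 and 1.96 (0.32 ± 0.22). Reln, an extracellular matrix protein, was at 41.5, 29.8, 36.4 and 18.5 CPM beside 36.4, 49.4, 49.7 and 23.6 (0.33 ± 0.27). The groups overlapped for each of these genes.

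Hepatocyte genes that answer endothelial signals were read beside the ligands. Of 15 targets of endothelial Wnt and Rspo3, 14 were tested and 8 were lowest in replicate 4 of both groups, as were Wnt2 and Rspo3. Glul, glutamine synthetase of the pericentral rim, was at 965, 935, 837 and 415 CPM in saline and 809, 837, 841 and 512 in 4-HPAA libraries. Axin2, a common Wnt target, had the smallest p of the list, at 3.05, 5.15, 3.31 and 2.47 CPM beside 2.93, 5.64, 4.82 and 4.34 (0.34 ± 0.26), and was not low in 4-HPAA replicate 4. Of the tested targets 7 had fold changes above 0 and 7 below, with a median of -0.02 on the log2 scale.

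Targets of endothelial Bmp2 and Bmp6 stood differently to their ligands in different libraries. Of 8 targets, 5 were highest in replicate 4 of both groups, where Bmp2 was at 9.65 and 7.48 CPM. In saline, 6 of the 8 were lowest in replicate 2, which was also the lowest saline library for Bmp2 and Bmp6. Bmp6 was at 5.13, 2.50, 3.84 and 3.30 CPM in saline and 3.74, 4.43, 3.82 and 3.32 in 4-HPAA libraries. Hamp, which encodes hepcidin, varied the most, with 670, 17.6, 155 and 553 CPM in saline and 93.4, 139, 381 and 321 in 4-HPAA libraries. Id3 had the smallest p of the list, at 17.5, 8.06, 9.74 and 20.8 CPM beside 16.2, 13.0, 24.4 and 34.3 (0.65 ± 0.36, unadjusted p = 0.0988, edgeR). The ranges of the groups overlapped for both genes.

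Transcripts of the members were examined one by one. Of 174 listed, 66 had at least 10 estimated counts in every library, and none was called among 25977 transcripts tested with edgeR's quasi-likelihood test. At an unadjusted p under 0.05 there were 0 of the 66 beside 3.85% of all transcripts. Flt1 makes a full-length VEGF receptor of 1333 residues (Flt1-202) and a soluble decoy of 688 residues (Flt1-203) that lacks the membrane and kinase parts. The soluble form held 21.0%, 28.02%, 29.7% and 19.9% of Flt1 counts in saline and 30.3%, 25.9%, 28.1% and 32.5% in 4-HPAA libraries. The shares overlapped, and the mean difference of 4.55 percentage points (24.6 ± 4.91 and 29.2 ± 2.83, SD, n = 4) gave p = 0.171 in a two-sided exact permutation test, whose smallest possible p is 0.0286.

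The replicate 4 pattern of Stab1 differed between its transcripts. Counts of its coding transcripts were 969, 851, 917 and 530 in saline and 913, 1051, 745 and 431 in 4-HPAA libraries, lowest in replicate 4. Counts of its transcripts without coding annotation, mostly forms with retained introns, were 602, 602, 538 and 592 beside 619, 452, 495 and 541. Their share was therefore 52.8% and 55.6% in the replicate 4 libraries and 30.1% to 41.5% in the others. Mrc1 showed the same, with 29.3% and 29.6% beside 5.4% to 16.7%, whereas in Nrp1 the share stayed between 3.7% and 7.9%.

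Of the member transcripts with a mean of at least 10 estimated counts, 1 had treatment groups that did not overlap. Stab1-212 (chr14:31139013-31142832, GRCm38) covers the 3′ end of Stab1 in 12 exons and keeps 3 introns of the full-length transcript, numbers 62, 64 and 65. It had 48, 41, 26 and 36 estimated counts in saline and 5, 10, 4 and 7 in 4-HPAA libraries. Stab1-212 was 1 of 87 member transcripts with that mean, beside groups that did not overlap in 2.16% of all such transcripts. At lower means the groups also did not overlap for Gata4-204 and Stab1-203. Stab1-212 missed the count minimum and was not in the test. With the looser filter of filterByExpr its log2 fold change was -2.48 ± 0.38 with an adjusted p of 0.497 in edgeR's test. It was the 1 member transcript of 87 with an unadjusted p under 0.05 there, or 1.15%, beside 2.88% of all transcripts kept. Its exons are shared with other Stab1 transcripts, so the estimated split of reads among them is uncertain.

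Promoters were compared because most members moved together across libraries. RefSeq windows of 250 bases before the start (GRCm38.p6) were found for 24 of the 40 members, 26 windows in all, and none for Lyve1, Oit3, Gpr182, Dnase1l3, Gata4, Maf, Ptprb, Pecam1, Cdh5, Vwf, Plvap, Ramp2, Sox18, Fabp4, Bmp2 and Rspo3. The ETS letters AGGAAG or CGGAAG, on either strand, occurred in 13 of the 26 windows, or 50%, beside 39.2% of 32851 windows of all genes. The GATA letters AGATAA occurred in 0 windows beside 9.99%, and the SOX letters AACAAT in 2, or 7.69%, beside 9.42%. Shown are Stab2 (chr10:87007943-87008192, minus strand) and Clec4g (chr8:3720652-3720901, minus), which were lowest in replicate 4 of both groups, and Tie1 (chr4:118489850-118490099, minus) and Robo4 (chr9:37401722-37401971, plus), which were not, with ETS letters in capitals and each read 5′ to 3′ toward the start.
Stab2: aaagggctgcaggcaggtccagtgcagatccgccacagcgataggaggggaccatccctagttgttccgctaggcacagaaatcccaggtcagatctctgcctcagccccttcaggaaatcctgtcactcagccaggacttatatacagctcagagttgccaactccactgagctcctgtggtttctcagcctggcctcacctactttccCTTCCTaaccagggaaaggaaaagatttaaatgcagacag
Clec4g: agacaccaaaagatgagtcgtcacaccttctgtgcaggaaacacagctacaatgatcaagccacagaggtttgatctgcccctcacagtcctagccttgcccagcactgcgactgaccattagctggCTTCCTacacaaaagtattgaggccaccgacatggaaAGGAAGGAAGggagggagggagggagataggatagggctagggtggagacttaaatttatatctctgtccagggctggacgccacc
Tie1: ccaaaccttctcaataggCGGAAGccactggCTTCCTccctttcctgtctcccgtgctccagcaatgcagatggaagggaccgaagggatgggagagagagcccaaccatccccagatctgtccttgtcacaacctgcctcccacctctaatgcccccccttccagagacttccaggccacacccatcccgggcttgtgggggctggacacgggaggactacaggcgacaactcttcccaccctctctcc
Robo4: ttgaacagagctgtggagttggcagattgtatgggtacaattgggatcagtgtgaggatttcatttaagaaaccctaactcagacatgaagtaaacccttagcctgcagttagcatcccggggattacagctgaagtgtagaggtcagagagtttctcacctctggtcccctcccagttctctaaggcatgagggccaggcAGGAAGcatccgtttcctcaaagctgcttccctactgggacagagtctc

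Clec4g held 3 matches, 2 of them overlapping by 2 bases, Tie1 held 2, and Stab2 and Robo4 1 each. Every window shown holds a match, so these windows cannot tell whether matches go with the low replicate 4. Windows with 0 ETS matches also occurred on both sides, such as Kdr and Tek with the low replicate 4 and Dll4 and Efnb2 without it. A match is a description of letters and not of binding.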

How the data were processed

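Bulk liver mRNA was sequenced in 8 libraries, 4 per group. The authors quantified transcripts with kallisto after FastQC (version 0.11.9), and the deposited values are estimated counts per transcript without normalization. Per the labels the build is GRCm38.p6. Of 119414 transcripts, 116728 matched a GENCODE M21 gene and were summed, which left out 0.703% to 1.06% of counts. Counts were rounded, and genes with at least 10 in each library were kept. edgeR (version 4.0.16) with TMM factors and a quasi-likelihood fit was the test. CPM are divided by TMM-scaled library sizes, and deviations use log2(CPM + 0.5). DESeq2 (1.42.0), limma-voom (3.58.1), other scalings and filters, a replicate block and left-out libraries were alternatives. On simulated data with 12644 genes, edgeR recovered 85.4% of genes changed 2-fold and 98.9% of those changed 4-fold, with 17 false calls. Genes were drawn independently there, so these rates do not cover deviations that many genes of a library share.

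Values in every library are given for the 6 tested members with the smallest p, the 6 with the highest length-scaled level, the ligands, the Notch and ephrin genes and members with a stray library, and for the gene with the smallest p of each related list. Other members are named by role. The members and lists were chosen with earlier results of these data known. Samples were grouped by their labels. Between 4 and 4 libraries, the totals of 29559978 to 30673398 counts limit single transcripts more than genes.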

Additional observations from a re-analysis of the deposited data

Results flagged for a closer look

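Of 98 groups of 4 libraries examined, 3 held a library far from the other libraries, where chance gives about 1 in 20 groups, or 4.9. In saline, Lyve1 was at 17.1 CPM in replicate 1 and at 5.56 to 5.84 in the others. Gpr182 was at 17.1 CPM in saline replicate 1 and at 13.3 to 13.9 in the others. Plvap was at 13.4 CPM in saline replicate 4 and at 18.5 to 18.9 in the others.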

How the results depend on the processing

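Members called and related genes called were 0 in every gene fit. Member transcripts called were 0 in the fits that were run for transcripts, with filterByExpr, with the replicate block and with each single library left out. DESeq2 called 2 genes of all tested, neither a member, and leaving out single libraries gave 0 to 1. With single libraries left out, members with a fold change above 0 numbered 12 to 34 and their median log2 fold change ran from -0.03 to 0.19, 12 without 4-HPAA replicate 2 and 16 without saline replicate 4. Without replicate 4 of both groups, chosen after seeing the data, 28 of 39 were above 0. The soluble Flt1 share differed by 2.97 to 6.22 percentage points. Direction held under every alternative for 12 members. For the others the cause was not tested, and the range of log2 fold changes with 1 library, or replicate 4 of 4-HPAA with replicate 2 or 4 of saline, left out was Aqp1 -0.027 to 0.25, Cdh5 -0.026 to 0.40, Clec1b -0.21 to 0.049, Clec4g -0.079 to 0.23, Dll4 -0.21 to 0.25, Dnase1l3 -0.11 to 0.27, Ehd3 -0.018 to 0.20, Emcn -0.082 to 0.11, F8 -0.030 to 0.30, Fcgr2b -0.028 to 0.33, Flt1 -0.047 to 0.18, Flt4 -0.068 to 0.20, Gpr182 -0.0081 to 0.19, Kdr -0.094 to 0.21, Lyve1 -0.40 to 0.71, Maf -0.089 to 0.14, Mrc1 -0.16 to 0.28, Nrp1 -0.26 to 0.17, Oit3 -0.056 to 0.21, Pecam1 -0.035 to 0.17, Ramp2 -0.022 to 0.15, Rspo3 -0.24 to 0.14, Stab1 -0.17 to 0.065, Stab2 -0.11 to 0.25, Tek -0.012 to 0.26, Tie1 -0.028 to 0.14, Vwf -0.26 to 0.52. Without saline replicate 2 and 4-HPAA replicate 4, the libraries with most globin, the log2 fold change turned for Dll4 (-0.21), Emcn (-0.082), Lyve1 (-0.40), Nrp1 (0.17), Ramp2 (-0.0027), Rspo3 (0.14), Stab1 (0.065), Vwf (0.52). Without replicate 4 of both groups the log2 fold change turned for Dll4 (-0.037), Lyve1 (-0.38), Ramp2 (-0.022). For Vwf it was 0.018 with limma-voom and 0.0060 with the replicate block.

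Libraries of the 2 groups share replicate numbers. Deviations of same-numbered libraries correlated over all genes at 0.0408, 0.155, 0.290 and 0.5002 for numbers 1 to 4, and not every library correlated best with its own number, so the numbers were not taken as pairs. The fit with the replicate block called 0 genes. It gave 2 members, Notch1 and Sox18, an unadjusted p under 0.05, beside 336 of 12883 genes. Without the block these were 0 members and 225 genes. Without 4-HPAA replicate 1 there was 1 such member (Sox18), beside 340 of 12927 genes. Without 4-HPAA replicate 4 there were 4 (Eng, Fabp4, Fcgr2b and Plvap), beside 287 of 13009. Leaving out saline replicate 1 gave 2 (Lyve1 and Notch1), beside 290 of 12921. Leaving out saline replicate 3 gave 1 (Sox18), beside 260 of 12916. Plvap was the 1 such member without 4-HPAA replicate 4 together with saline replicate 2 or 4, beside 285 of 13056 and 242 of 13088. The paired soluble Flt1 difference was 4.55 points (p = 0.5, exact permutation over 4 pairs).

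With 4 libraries per group, 20 of 39 members could not be bounded within 1.5-fold, and Wnt9b lacked depth for a test.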

Other observations

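Esm1, a proteoglycan secreted by endothelium that is no member of the list, was at 3.08, 1.06, 0.525 and 3.504 CPM in saline and 1.36, 1.30, 0.550 and 5.002 in 4-HPAA libraries. Replicate 4 was its highest library in both groups, the reverse of most members. Its log2 fold change between treatments was 0.0015 ± 0.70. Esm1 was named after its values were seen.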
